A study of Mus musculus with 8 samples.

Results

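The genes described here are 7 of the 49315 gene rows of a count table of mouse hearts, taken by name: Esr1, Gper1, Pgr, Srd5a1, Nrip1, Greb1 and Cish. They were chosen for their roles in gonadal steroid signalling, with earlier results of these data known. The table holds 8 RNA sequencing libraries from hearts of C57BL/6 mice, a standard inbred strain, at 8 weeks of age, 4 from males and 4 from females. Neither sex carried an induced mutation or a treatment per the labels, which give no hormone level, oestrous stage or part of the heart. They also do not say whether the libraries were made from separate animals. P-values then measure only the spread between these libraries, which may be technical. Levels are given as CPM, the count scaled to the size of its library, and a log2 fold change is the male minus the female level with a standard error (SE). A gene was called when its adjusted p was below 0.05 in the quasi-likelihood test of edgeR.

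Oestrogens, androgens and progesterone act through nuclear receptors that bind DNA and recruit coregulators, and oestrogens also through a membrane receptor coupled to G proteins. Heart muscle cells, fibroblasts and vascular cells are known to hold such receptors, and local enzymes can convert the hormones before they bind. Gonadal steroids also set the sex-specific pattern of growth hormone release, and growth hormone acts on its target cells through the transcription factor STAT5. Cish, a feedback inhibitor of that pathway, is one of the best known STAT5 targets.

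Total counts were 39612848 to 47097765 in the male libraries and 32746054 to 35467832 in the female ones, so depth and sex moved together. Markers of heart muscle cells summed to 97340 to 107200 CPM in males and 103000 to 104400 CPM in females. Atrial markers summed to 502 CPM in male replicate 4, against 2402 to 2831 CPM in the other male libraries and 2667 to 2913 CPM in the female ones. Over all 16180 genes tested, 613 were called (3.79%), 329 with higher levels in males and 284 with higher levels in females.

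Of the 7 genes, 6 had enough counts to be tested and 1 of them, Cish, was called, against 3.79% of all genes. Male and female libraries were fully apart for Cish, Esr1 and Srd5a1, 3 of the 6 tested, against 12% of all genes. The 7 genes were chosen with earlier results of these data known, so neither count is evidence about them as a set. Pgr had 10 counts in all.

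The promoter of Cish is shown because this gene carried the call and because STAT5 is known to act on it there. The stretch, from RefSeq (GRCm38.p6, chr9:107296409-107296708, plus strand), runs from 250 bases before the RefSeq transcript start to 50 after it. The counted Cish model starts earlier, at 107296026, so the whole window lies within the span of that model. Capitals mark each match to TTCNNNGAA, the general STAT motif, searched on both strands.

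Cish: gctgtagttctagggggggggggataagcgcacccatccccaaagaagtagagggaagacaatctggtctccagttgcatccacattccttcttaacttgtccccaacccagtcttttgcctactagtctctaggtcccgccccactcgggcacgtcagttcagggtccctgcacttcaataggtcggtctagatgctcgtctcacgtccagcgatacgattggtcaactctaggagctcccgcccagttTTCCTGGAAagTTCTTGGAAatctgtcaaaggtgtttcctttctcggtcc

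The window held 2 matches, TTCCTGGAA and TTCTTGGAA, the first starting at base 251 of the window, which is the RefSeq start itself, and the second at base 262. Of 32851 promoter windows of the same length, 8.3% held the motif at least once and 0.457% at least 2 times. The narrower form TTCCNGGAA matched the first of the pair and was found in 377 of the 32851 windows. The palindromic oestrogen response element (GGTCA and TGACC with 3 bases between them) was found in 0.07% of all windows and the androgen response element (AGAACA and TGTTCT with 3 bases between them) in 0.00913%. Neither was in the 10 windows of the 7 genes. The shorter nuclear receptor motif AGGTCA, in 16.3% of all windows, matched 1 of the 10, the upstream window of Greb1. The second window of Esr1 held 1 match to the STAT motif. A match is a description of the letters and not of binding.

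Cish (chromosome 9, 107296026 to 107302784, GRCm38, plus strand, 3 exon blocks), whose protein of the SOCS family dampens STAT5 signalling from cytokine and growth hormone receptors, was lower in male hearts. The male libraries, replicates 1 to 4, held 81.7, 87.0, 73.0 and 75.5 CPM. The female libraries held 106, 87.7, 123 and 107 CPM. All male values lay below all female ones, but male replicate 2 and female replicate 2 nearly met. The means were 79.3 ± 6.28 CPM in males and 106 ± 14.5 CPM in females (SD, n = 4 each), 1.34-fold lower in males. The log2 fold change was -0.42 (SE 0.09, 95% interval -0.61 to -0.23, adjusted p = 0.0246 in edgeR). Counts were high, with 13369 in males and 14770 in females, so counting error gave a coefficient of variation of under 2% per library (1.73% in males, 1.65% in females). The measured coefficient was 7.92% in males and 13.7% in females.

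**Figure D1:**
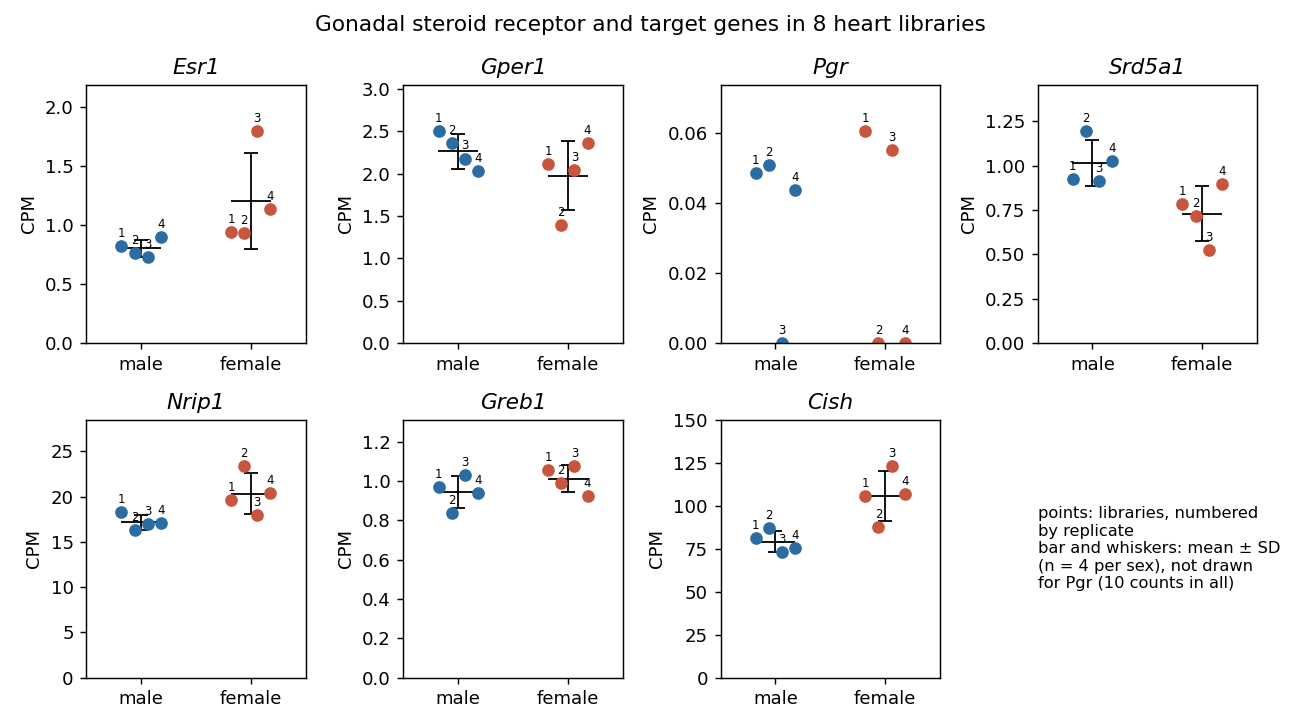
CPM of the 7 genes in each library, male left and female right, on linear axes from 0. Points are libraries numbered by replicate, and bars with whiskers are mean ± SD (n = 4 per sex), not drawn for Pgr. For Cish the male points, 73.0 to 87.0 CPM, all lie below the female ones, 87.7 to 123 CPM, and for Esr1 female replicate 3 stands above the other 7 libraries.

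The call of Cish rested on several single libraries, although the direction did not change with any of them. It was lost without male replicate 3 (adjusted p = 0.0749), male replicate 4 (0.0583), female replicate 1 (0.0581), female replicate 3 (0.0541) or female replicate 4 (0.0592) in edgeR. It held without male replicate 1 (0.037), male replicate 2 (0.0296) or female replicate 2 (0.00599). With all libraries thinned to the smallest total the log2 fold change was -0.41 (adjusted p = 0.0247). The Cish model shares 261 exon bases with Gm17040 and 479 with Gm17041 on the opposite strand. These genes had 151 and 0 counts over the 8 libraries, against 28139 for Cish, and the strand setting of the counting is not given in the sources used here.

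**Figure D2:**
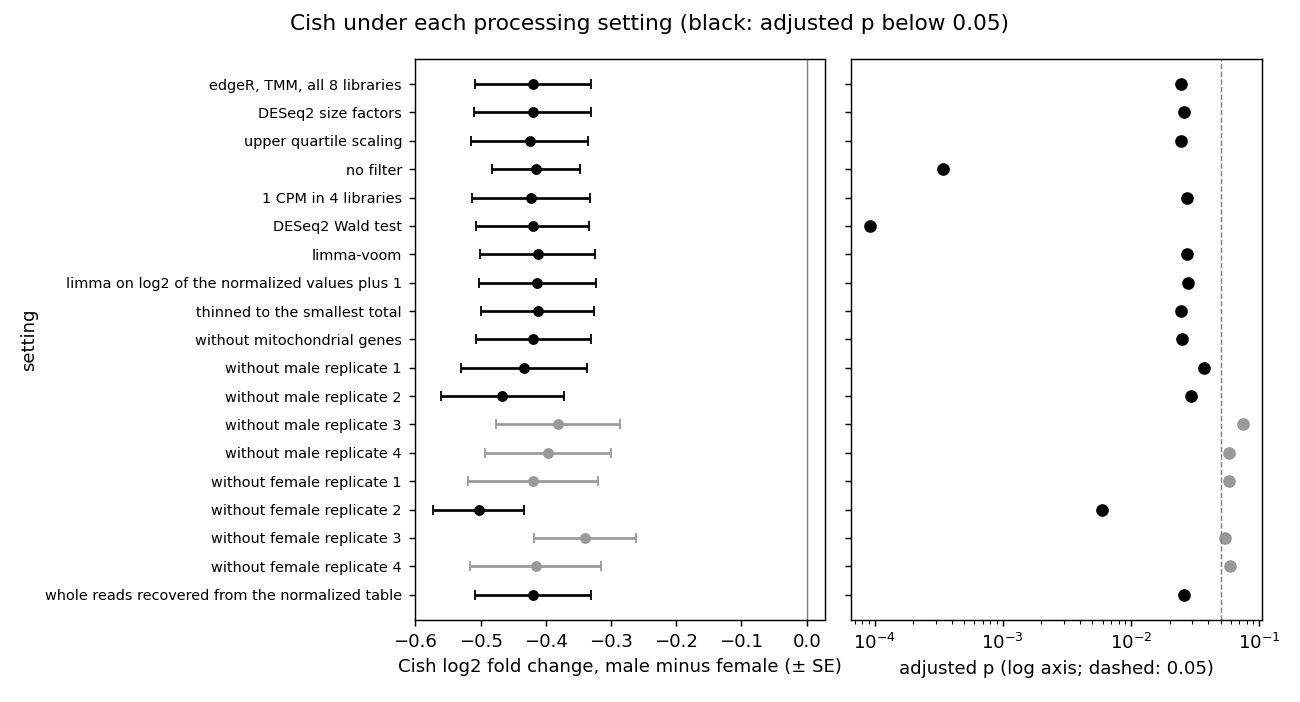
Cish log2 fold change, male minus female, with its SE (left) and adjusted p on a log axis (right), 1 fit per row. Rows are the edgeR fit on all libraries and each alternative except the fit with the replicate number as a block. In that fit, not drawn, Cish was not called (adjusted p = 0.0689 in edgeR). The fold change lies between -0.50 and -0.34 in every row shown, while the adjusted p passes 0.05 (dashed) in 5 of the 8 rows with a library left out, drawn in grey.

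Esr1 (chromosome 10, 4611593 to 5005614, plus strand, 19 exon blocks), which encodes oestrogen receptor alpha, was measured at a low level and was not called. The male libraries held 0.825, 0.761, 0.727 and 0.895 CPM (34, 30, 31 and 41 counts). The female libraries held 0.936, 0.933, 1.79 and 1.13 CPM (31, 34, 65 and 38 counts). The groups did not overlap, female replicate 3 was far above the rest, and female replicates 1 and 2 lay just above male replicate 4. The means were 0.802 ± 0.0742 CPM in males and 1.2 ± 0.406 CPM in females, a log2 fold change of -0.58 (SE 0.23, adjusted p = 0.185 in edgeR). Without female replicate 3 the log2 fold change was -0.32 (adjusted p = 0.4). The male spread, 9.25%, was below the 17.1% that counting alone gives, and the female spread of 33.9% was above the 15.4% from counting.

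Gper1 (chromosome 5, 139423151 to 139427800, plus strand), the membrane oestrogen receptor coupled to G proteins, overlapped between the sexes. The male libraries held 2.5, 2.36, 2.18 and 2.03 CPM. The female libraries held 2.11, 1.4, 2.04 and 2.36 CPM. Female replicate 2 was the lowest of all, and the other 3 female values lay within the male range. The means were 2.27 ± 0.205 CPM in males and 1.98 ± 0.409 CPM in females. The log2 fold change of 0.20 (SE 0.16, adjusted p = 0.537 in edgeR) had a 95% interval from -0.15 to 0.54, which spans a 0.902- to 1.46-fold ratio of males over females. Without female replicate 2 the log2 fold change was 0.06 (adjusted p = 0.866).

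Pgr (chromosome 9, 8899833 to 8968611, plus strand), the progesterone receptor gene and a classical oestrogen target in the uterus and mammary gland, was close to the limit of detection. The male libraries had 2, 2, 0 and 2 counts and the female ones 2, 0, 2 and 0. The 6 male and 4 female counts give a ratio of 1.24, males over females. Its exact 95% counting interval was 0.293 to 5.96, so a moderate difference was not detectable at this depth. The gene did not pass the filter on low counts and was not tested.

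Srd5a1 (chromosome 13, 69573449 to 69611442, minus strand), a steroid 5-alpha reductase that turns testosterone into the stronger androgen dihydrotestosterone, had higher values in males but was not called. The male libraries held 0.922, 1.19, 0.914 and 1.03 CPM (38, 47, 39 and 47 counts). The female libraries held 0.785, 0.713, 0.524 and 0.895 CPM (26, 26, 19 and 30 counts). The groups did not overlap, by the narrow margin between male replicate 3 and female replicate 4. The means were 1.01 ± 0.129 CPM in males and 0.729 ± 0.156 CPM in females, a 1.39-fold difference (log2 fold change 0.48, SE 0.19, adjusted p = 0.205 in edgeR). The 95% interval of the ratio was 1.04 to 1.87 and the exact counting interval 1.08 to 1.8. Its model shares 476 exon bases with Gm17108 on the same strand, which had 101 counts in all.

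Nrip1 (chromosome 16, 76287400 to 76373827, minus strand), the coregulator RIP140 that represses transcription by oestrogen and other nuclear receptors and restrains oxidative metabolism genes, was not called in edgeR. The male libraries held 18.3, 16.3, 17.0 and 17.1 CPM. The female libraries held 19.6, 23.4, 17.97 and 20.4 CPM. Male replicate 1 lay above female replicate 3, and the other male values lay below all female ones. The means were 17.2 ± 0.819 CPM in males and 20.3 ± 2.26 CPM in females (log2 fold change -0.24, SE 0.08, adjusted p = 0.099 in edgeR and 0.0463 in DESeq2). Its 95% interval was -0.41 to -0.08, and without female replicate 2 the adjusted p was 0.208.

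Greb1 (chromosome 12, 16670615 to 16800886, minus strand), an oestrogen-induced cofactor of oestrogen receptor alpha in breast cancer cells, was low in both sexes, which overlapped. The male libraries held 0.971, 0.837, 1.03 and 0.938 CPM (33 to 44 counts). The female libraries held 1.06, 0.987, 1.08 and 0.925 CPM (31 to 39 counts). The log2 fold change was -0.10 (SE 0.15, adjusted p = 0.795 in edgeR), with a 95% interval of the ratio, males over females, from 0.744 to 1.17. It was -0.28 with all libraries thinned to the smallest total (adjusted p = 0.416) and -0.05 without male replicate 2 (adjusted p = 0.917). The spread within a sex, 8.6% in males and 6.79% in females, was below the counting error of 15.8% and 16.8%.

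Per kilobase of summed exons, the 7 genes spanned more than 3 orders of magnitude. Cish averaged 12.4 CPM per kilobase in males and 16.5 in females, a higher level than that of 83% of all tested genes. Nrip1 followed with 1.5 and 1.78, Gper1 with 0.894 and 0.779, and Srd5a1 with 0.352 and 0.253, each pair given as male and then female. Greb1 had 0.0986 in males and 0.106 in females, Esr1 0.0587 in males and 0.0877 in females, and Pgr at most 0.00707 in any library. Only Greb1 and Esr1 overlapped among neighbours in this order. The levels of Greb1 and Esr1 exceeded those of 3.39% and 1.72% of tested genes.

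The order of that last pair depends on the length used. With the length of the principal GENCODE M21 transcript, 6339 bases for Esr1 in place of 13661, Esr1 had a mean level of 0.158 CPM per kilobase over all libraries and Greb1 0.121. The summed exons of Cish, 6419 of the 6759 bases it spans, also exceed its principal transcript of 2850 bases, with which its level was 27.8 CPM per kilobase in males and 37.2 in females. In bulk tissue, fewer cells of a type and less RNA per cell cannot be told apart.

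**Figure D3:**
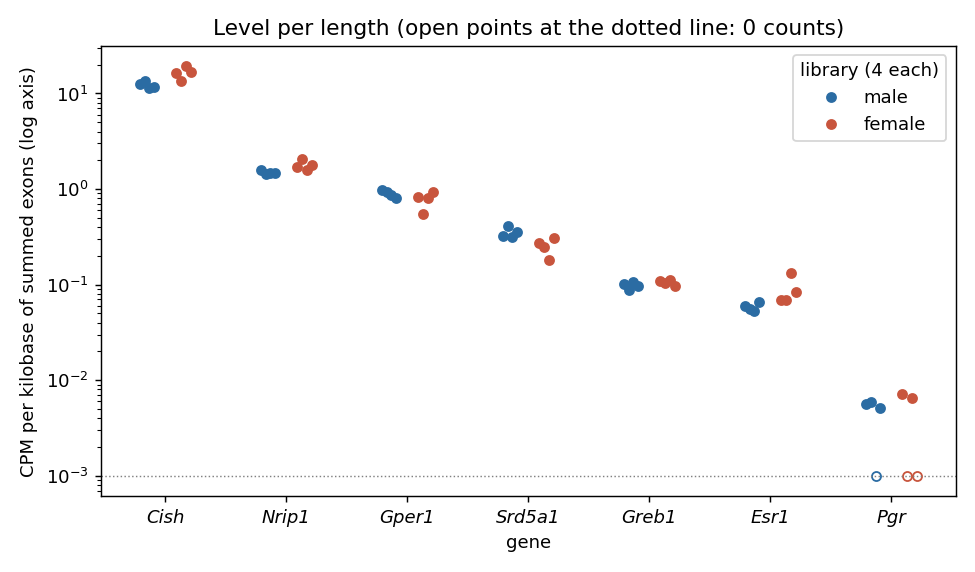
CPM per kilobase of summed exons on a log axis for each library, genes ordered by their mean, male points left of female ones. Open points on the dotted line mark libraries without a count, which occur for Pgr only. Cish lies between 11.4 and 19.2, and the points of Greb1 and Esr1 overlap.

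The profiles over the 8 libraries closest to that of Cish were those of 3 genes. The measure was the root mean square difference of log2 CPM after centring each gene on its mean, over 11551 genes. Itih4, a heavy chain of the inter-alpha-trypsin inhibitor family, differed by 0.061, Clec3b, which encodes tetranectin, by 0.0747, and Csrnp1, a nuclear protein gene, by 0.0814. Clec3b averaged 62.4 ± 2.5 CPM in males and 79.1 ± 9.41 CPM in females (log2 fold change -0.34, adjusted p = 0.0272 in edgeR). Leaving out 1 library at a time ended its call in 6 of 8 cases, the highest adjusted p being 0.0748 without male replicate 3. Itih4 (-0.40, adjusted p = 0.0722) and Csrnp1 (-0.37, adjusted p = 0.0578) were not called in edgeR, while DESeq2 called Csrnp1 (adjusted p = 0.00764). A likeness over 8 libraries that form 2 sexes includes the sex difference itself.

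The 7 genes and others of the same pathways were read in 6 lists with 130 gene names, of which 107 were tested. The lists were written with earlier results of these data known, among them the higher level of Fkbp5 in males. Neither the share of called genes in the lists nor the direction of Fkbp5 is independent evidence. Of the 107, 12 were called (11.2%, against 3.79% of all genes), 8 higher in males and 4 higher in females, Cish included. Without male replicate 3 the count was 6, with 315 over all genes, and without female replicate 2 it was also 6, with 354 over all genes. The median log2 fold change was 0.02 in the lists and 0.00 over all genes, and the median size of the change 0.09 in both.

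Of the 13 receptor genes listed, 3 were too low to test. They were Pgr, Esr2, which encodes oestrogen receptor beta (14 counts in males and 9 in females), and Paqr5, a membrane progestin receptor gene (11 counts in males and 17 in females).

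Among coregulators, 1 of 22 was called. Ppargc1b, which encodes PGC-1beta, a coactivator of oestrogen-related and other nuclear receptors, was at 27.6 ± 2.11 CPM in males and 37.4 ± 3.94 CPM in females (log2 fold change -0.44, adjusted p = 0.0106 in edgeR). Its call held in all 8 fits to 7 libraries. The list's median was 0.02.

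Among genes of steroid synthesis and conversion, 1 of 18 tested was called, higher in males. Sult1a1, a phenol sulfotransferase that can inactivate oestrogens by sulfation, was at 37.5 ± 4.14 CPM in males and 26.7 ± 0.775 CPM in females. Its log2 fold change was 0.49 (SE 0.07, adjusted p = 0.00362 in edgeR), and the call also held in each of the 8 fits to 7 libraries. Cyp19a1, the aromatase that makes oestrogens from androgens, had 0 counts in every library, as did Hsd3b1 and Hsd17b3 of androgen synthesis. With 309377955 counts in all, 0 counts allow a level of up to 0.0097 CPM over the 8 libraries, counting error only.

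Oestrogen response genes were called in both directions, with 2 of 19 tested higher in males and 1 in females. Ccn5, a matricellular protein gene induced by oestrogen in breast cancer cells, was at 8.3 ± 1.12 CPM in males and 5.21 ± 0.653 CPM in females (log2 fold change 0.67, adjusted p = 0.0113 in edgeR). The transglutaminase gene Tgm2 (0.29, adjusted p = 0.0348) was also higher in males, and 2 of 8 fits to 7 libraries kept its call, with an adjusted p of 0.0953 when male replicate 3 was absent. The chemokine gene Cxcl12 was at 128 ± 10.9 CPM in males and 158 ± 7.46 CPM in females (-0.30, adjusted p = 0.0176). Its adjusted p was 0.0518 without female replicate 3 and 0.051 without female replicate 2.

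Androgen response genes that were called, 3 of 17 tested, were all higher in males. The other 14 were not called, and the list's median log2 fold change was 0.05. Fkbp5, a co-chaperone of steroid receptors induced by androgens and by glucocorticoids, was at 58.9 ± 10.8 CPM in males and 16.9 ± 4.57 CPM in females (log2 fold change 1.80, adjusted p = 0.000304 in edgeR). The elongation factor gene Ell2 was at 17.3 ± 0.888 CPM in males and 14.2 ± 0.664 CPM in females (0.28, adjusted p = 0.0205). Mertk, a receptor tyrosine kinase gene, was at 12.6 ± 1.08 CPM in males and 9.97 ± 0.94 CPM in females (0.33, adjusted p = 0.0493). Fits to 7 libraries kept the call of Ell2 in 5 of 8 cases (0.0588 when female replicate 2 was absent) and that of Mertk in 2 of 8 (0.131 when male replicate 3 was absent). Both calls were also lost with all libraries thinned to the smallest total (adjusted p = 0.0647 for Ell2 and 0.0558 for Mertk).

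In the list of STAT5 signalling and feedback, 3 of 22 genes were called, Cish lower in males and Bcl6 and Ptpn11 higher. The other 19 genes, further STAT5 targets among them, were not called, and the list's median log2 fold change was -0.03. Bcl6, a transcriptional repressor that STAT5 is known to repress in liver, held 44.3, 32.1, 44.2 and 44.3 CPM in the male libraries and 18.7, 23.0, 30.4 and 29.4 CPM in the female ones. All male values lay above all female ones (log2 fold change 0.70, SE 0.14, adjusted p = 0.0223 in edgeR). The call of Bcl6 was lost without male replicate 3 (0.0647), male replicate 4 (0.0514) or female replicate 2 (0.0669). Ptpn11, which encodes the phosphatase SHP2, was at 352 ± 14.6 CPM in males and 294 ± 10.9 CPM in females (0.26, adjusted p = 0.00773), and held its call in all 8 fits to 7 libraries.

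**Figure D4:**
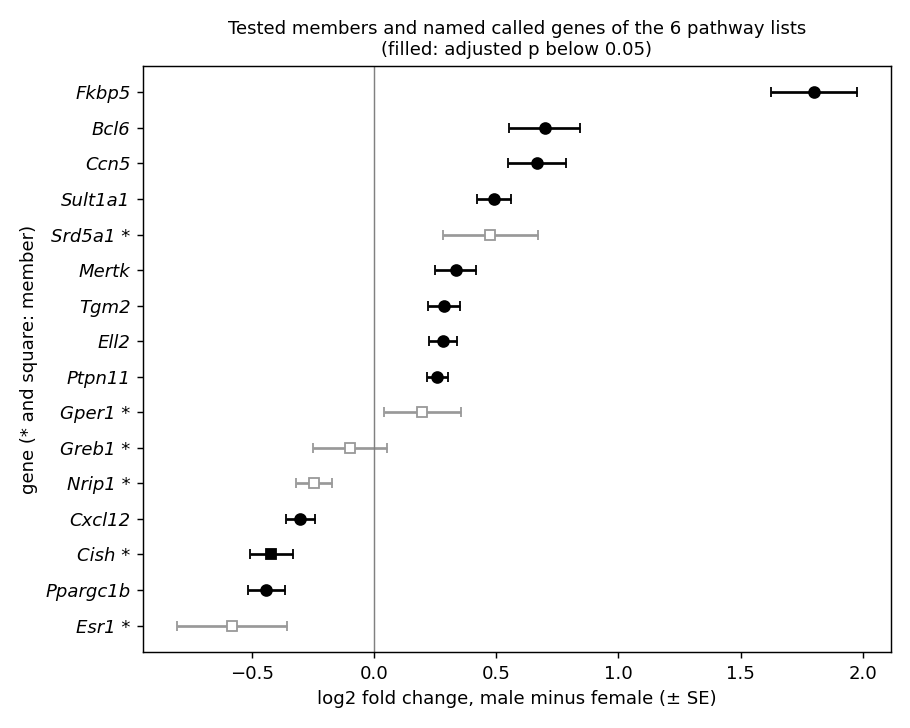
Log2 fold change, male minus female, with its SE for the 6 tested genes of the gonadal steroid set (squares, starred) and the other called genes named here from the 6 pathway lists. Filled symbols have an adjusted p below 0.05. Cish is the only filled square, at -0.42, and Fkbp5 lies farthest from 0, at 1.80.

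Markers of other cell types moved with sex beside these genes. Fibroblast markers summed to 3047 to 3457 CPM in males and 3578 to 3789 CPM in females, and 4 of 12 were called, 3 of them higher in females. Their most abundant members, Gsn (1936 ± 127 CPM in males, 2072 ± 83.8 in females) and Dcn (392 ± 27.6 in males, 402 ± 11.1 in females), were not called. White adipocyte markers summed to 92.4 to 148 CPM in males and 185 to 312 CPM in females, and 9 of 10 were called, all higher in females. Lipe, the most abundant, was at 80.3 ± 9.39 CPM in males and 91 ± 12.2 CPM in females, and Cfd, the next, at 13.2 ± 6.31 CPM in males and 47.3 ± 11 CPM in females.

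Brown adipocyte markers summed to 52.4 to 62.6 CPM in males and 64.4 to 157 CPM in females, with 2 of 6 called, both higher in females. The called genes were Ucp1, the uncoupling protein of brown fat, at 1.17 ± 1.65 CPM in males and 40 ± 32.8 CPM in females, and Dio2, a thyroid hormone deiodinase gene, at 1.68 ± 0.322 CPM in males and 3.76 ± 0.678 CPM in females (adjusted p = 0.00772 and 0.00336 in edgeR). Ucp1 reached 51.1 CPM in female replicate 2 and 81.1 CPM in female replicate 3. Cidea, at 30.6 ± 2.87 CPM in males and 38.6 ± 7.46 CPM in females, and Prdm16, at 22.7 ± 1.03 CPM in males and 22.1 ± 1.84 CPM in females, were not called. Female replicate 3, the library with the highest Cish and Esr1, also had the highest sums of fibroblast (3789), white adipocyte (312), brown adipocyte (157) and epicardial and mesothelial markers (115 CPM). Female replicate 2, with the next highest white adipocyte sum (278), had the lowest Cish of the female libraries, 87.7 CPM. Macrophage and monocyte markers summed to 422 CPM in male replicate 1, 270 to 274 CPM in the other males and 223 to 258 CPM in females. Of these markers, 1 of 10 was called, higher in males. The most abundant were C1qa (68.5 ± 19.6 CPM in males, 54.3 ± 7.09 in females) and Csf1r (63.9 ± 6.61 in males, 54.5 ± 2.88 in females). C1qa was at 97.8 CPM in male replicate 1 and 58.1 to 59.5 CPM in the other males. Sums of endothelial, smooth muscle, epicardial and mesothelial, lymphocyte, nerve and red cell markers overlapped between the sexes. The part of these cell types in the differences of Cish, Esr1 and the other genes was not tested.

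**Figure D5:**
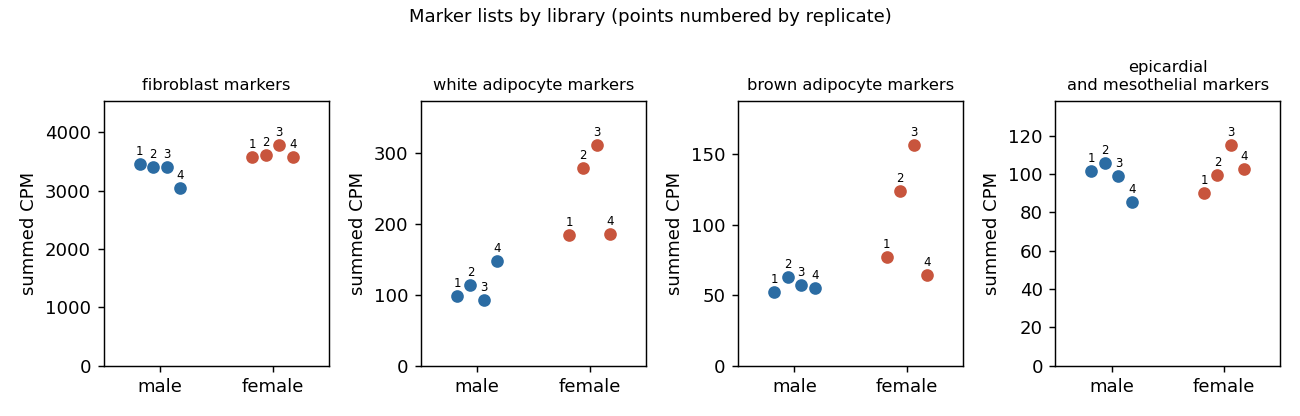
Summed CPM of 4 marker lists in each library, male left and female right, on linear axes from 0, points numbered by replicate. The sexes do not overlap for fibroblast, white adipocyte and brown adipocyte markers, and female replicate 3 is the highest library in all 4 panels.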

How the data were processed

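Hearts were dissected, RNA extracted with Trizol and libraries made from 1 µg of total RNA with a TruSeq kit, per the labels' protocols. The authors deposited raw counts per gene for 49315 genes. Tools in the submitters' processing notes are the trimmer Trimmomatic (0.36), the aligner STAR (2.5.2b) and featureCounts from the Subread package (1.5.2). The build named there is mm10, also called GRCm38. Annotation version, strand setting and treatment of multi-mapping reads are not given in the sources used here. The 8 single-sample tables hold the same counts and the summed exon lengths. The deposited normalized table is a signal for 16160 genes: counts over a library's size factor, which the values put at 0.863 to 1.196. Multiplied back, 100% of its values were whole within 0.01, and the count test on them called 604 genes. Symbols matched 48970 IDs.

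Genes were filtered with filterByExpr (minimum count 10, total 15), leaving 16180. After TMM scaling, the sexes were compared by edgeR (version 4.0.16, R 4.3.3) with its quasi-likelihood F-test, with p-values adjusted by Benjamini-Hochberg over all genes tested. Each SE was derived from the fold change and F (log2 fold change over the root of F), and log2 CPM used a prior count of 2. One count was worth 0.0218 to 0.0302 CPM. Counting intervals (exact, 95%) and limits from 0 counts (3 counts) cover counting error only. The procedure was tested on simulated data.

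The genes and lists were chosen with earlier results of these data known. No match was found for 3 listed names. Among them was Wisp2, an older name of Ccn5, which the same list also holds. Named beyond the 7 genes were, per list, up to 3 called genes in each direction by smallest p, the 3 profiles nearest to Cish among genes whose mean log2 CPM reached 1, and the 2 most abundant markers of lists that moved with sex. A called gene of the lists is counted but otherwise not reported here. Genes with 0 counts, untested receptors, Ucp1 and Dio2 were named after their values were seen. Alternatives were other scalings and filters, DESeq2 1.42.0, limma 3.58.1 (voom, and on log2 of the normalized signal plus 1), the replicate number as a block, thinning, removal of mitochondrial genes and each library left out.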

Additional observations from a re-analysis of the deposited data

Results flagged for a closer look

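Pgr was at 0 CPM in male replicate 3, against 0.0436 to 0.0507 CPM in the other 3 male libraries. The gap to the nearest library was 0.86 of the group's range, above the 95% critical value of Dixon's test for 4 samples. The values are 2, 2, 0 and 2 counts, so the gap is that of 2 counts. It was the only one of 14 groups (7 genes in 2 sexes) to stand out. Chance flags about 1 in 20 groups of continuous values, a rate that does not hold for counts this low.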

How the results depend on the processing

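Esr1, Gper1, Srd5a1, Nrip1, Greb1 and Cish kept the direction of their fold change under every alternative in which they were tested. Esr1, Gper1, Srd5a1 and Greb1 stayed uncalled throughout, with adjusted p of 0.16 to 0.4, 0.388 to 0.866, 0.173 to 0.384 and 0.416 to 0.917. A filter of 1 CPM in 4 libraries left 3 of the 7 genes and gave no value for Esr1, Srd5a1 and Greb1. Pgr was tested only without a filter, at 0.28 (adjusted p = 0.941). In DESeq2 964 genes, 21 genes of the pathway lists and 2 of the 7 genes were called, the second being Nrip1 (-0.245, adjusted p = 0.0463, and 0.0463 to 0.208 over all alternatives). With a library left out, 315 to 490 genes, 6 to 10 pathway genes and 0 to 1 of the 7 genes were called, and the log2 fold change of Cish lay between -0.50 and -0.34, its adjusted p between 0.00599 and 0.0749. The cause of these moves was not tested.

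Across genes, no pairing of the libraries by replicate number was seen. Same-numbered male and female libraries had correlations of their deviations from the sex means of -0.047 to 0.054. No male library correlated best with its own number. A pairing that touches only some genes was not tested. With the replicate number as a block, edgeR called 427 genes, 8 pathway genes and 0 of the 6 tested among the 7 genes. Cish was at -0.41 (adjusted p = 0.0689), and the calls of Clec3b, Ell2 and Mertk were lost (0.0623, 0.0596 and 0.0638). Of the 6, 4 were below an unadjusted p of 0.05 in edgeR. In the fit without the block 19.5% of all genes were below it, and that share is not given here for the block. The count test on reads recovered from the normalized table was added after seeing the data and called Cish (adjusted p = 0.0259) and 11 pathway genes. Those reads were scaled back with the raw counts of the same genes, so that fit is not an independent check. Depth limits Pgr, Esr1, Srd5a1 and Greb1, with 10 to 304 counts each over the 8 libraries.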
